A study of Mus musculus with 14 samples.

Results

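Mitochondrial DNA (mtDNA) is copied and transcribed by a small set of enzymes that are all encoded in the nucleus. The 10 genes described here are Polg, Polg2, Twnk, Ssbp1, Mgme1, Top1mt, Polrmt, Tfam, Tfb1m and Tfb2m. They were chosen by name, with earlier results of these data known, and found by the gene symbol that the array platform's annotation gives. Each had 1 probe set, so they are 10 of the 22206 probe sets tested, of which 19572 carried a symbol. Their signal was measured in cultured mouse hematopoietic progenitor cells (HPCs), the lineage-negative cells of bone marrow, on 14 whole-transcript arrays.

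The groups combine the genotype of Polg with a retroviral vector. Hom-NMyc and Hom-Ctrl cells (2 arrays each) came from mice homozygous for a mutant Polg allele (Polgmut/mut). Het-NMyc (2 arrays) and Het-Ctrl (3 arrays) cells came from heterozygotes (Polgwt/mut), and WT-NMyc (2 arrays) and WT-Ctrl (3 arrays) cells from wild types (Polgwt/wt). NMyc cells received the vector MSCV-NMyc-IRES-YFP, which carries N-Myc and a fluorescent marker, and Ctrl cells the vector MSCV-IRES-YFP with the marker alone. Every group, controls included, was therefore virus-exposed, from supernatant of GP+E86 packaging cells on retronectin. The labels do not state the mutation, and no age of the mice or sort of marked cells is given in the sources used here. The labels call the arrays biological replicates without naming the animals.

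Polymerase gamma copies mtDNA. Polg is its catalytic subunit and Polg2 the accessory subunit that helps it hold the template. The helicase Twnk opens the duplex, Ssbp1 coats the single strands, Mgme1 trims DNA ends, and Top1mt relieves the twisting that copying and transcription build up. Transcription is carried out by the single-subunit RNA polymerase Polrmt, started together with Tfam, which also packages mtDNA, and Tfb2m. Tfb1m is related to Tfb2m and methylates the RNA of the small mitochondrial ribosomal subunit. In bone marrow, mice with error-prone polymerase gamma are known for anemia and altered progenitors, and Myc proteins are known as regulators of nuclear genes for mitochondria.

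RefSeq windows of 250 bases before and 50 after the start (assembly GRCm38.p6) were at hand for 9 of the 10 genes, in 10 windows (Twnk has a pair of starts), and for Top1mt none was used here. They are shown because 8 of the 10 members were higher with NMyc, while 1 was lower and 1 was not called. A link between the matches below and the signals was not tested. The core CCGGAAG is bound by ETS factors such as GABP, a nuclear respiratory factor. It was found on either strand in 6 of the 9 genes and 6 of their 10 windows, against 8.86% of all windows of this length. Both Twnk matches lie in the window of 1 start, and the other Twnk window has 0. The matches, with 10 bases on either side, written 5′ to 3′ on the strand that reads the core (in capitals), with the position of the first base of the match in the direction of transcription, counted from the start, were these:
Polg (chr7:79466295-79466321, minus strand, position -38): aggacctcacCCGGAAGtccctctgca
Polg2 (chr11:106779550-106779576, plus strand, position -29): gaccacgcccCCGGAAGagcgtcaccc
Twnk (chr19:45006438-45006464, minus strand, position -110): aaccccggaaCCGGAAGtcaccggtta
Twnk (chr19:45006482-45006508, minus strand, position -66): cgcggtgactCCGGAAGcaaaactctc
Ssbp1 (chr6:40471411-40471437, plus strand, position -47): gctccgtgcgCCGGAAGcgagccgctg
Tfam (chr10:71238075-71238101, minus strand, position -47): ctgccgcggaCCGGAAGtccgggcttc
Polrmt (chr10:79746608-79746634, plus strand, position -43): tctgcgactgCCGGAAGcgctcttagg

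The variant E-box CACGCG stood in 6 of the 9 genes and 6 of the 10 windows (9.27% of all windows), namely Polg, Twnk, Ssbp1, Polrmt, Tfb1m and Mgme1. The canonical E-box CACGTG, the Myc family's preferred site, was in none of them (7.15% of all windows). The NRF1 core GCATGCGC lay in Polrmt and Tfb2m (2.71% of all windows). Both strands were searched and overlapping matches were counted. A match is only a description of letters. The bases of the window outside every annotated gene span are given for Polrmt, which rose with NMyc, and for Polg2, the one member lower with NMyc, with the matches to these cores in that stretch in capitals. The Polrmt stretch stops 23 bases before the start, so its CACGCG matches at positions -5 and 2 lie outside it and are not shown, and the Polg2 stretch reaches the start (GCGCATGC is GCATGCGC and CTTCCGG is CCGGAAG, on the other strand):
Polrmt (chr10:79746605-79746831, minus strand, 227 bases): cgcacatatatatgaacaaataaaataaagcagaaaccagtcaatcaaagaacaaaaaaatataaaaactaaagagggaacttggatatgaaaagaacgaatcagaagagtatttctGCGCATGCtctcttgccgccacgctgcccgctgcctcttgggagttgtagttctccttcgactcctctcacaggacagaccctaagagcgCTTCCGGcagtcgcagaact
Polg2 (chr11:106779538-106779787, minus strand, 250 bases): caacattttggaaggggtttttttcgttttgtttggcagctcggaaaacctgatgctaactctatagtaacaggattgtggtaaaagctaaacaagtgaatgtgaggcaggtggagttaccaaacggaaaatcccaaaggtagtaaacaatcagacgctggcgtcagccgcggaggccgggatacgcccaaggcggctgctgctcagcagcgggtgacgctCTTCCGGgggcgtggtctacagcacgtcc

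The values are log2 signals as deposited, and a difference of 1 on this scale is a doubling. The vector's own gene, Mycn, read 12.15 to 12.38 in NMyc arrays, against 7.43 to 7.76 in 7 of the 8 Ctrl arrays and 9.77 in the array labelled Hom-Ctrl replicate 1. Some results within Hom cells, or between Hom and another genotype, are given without this array as well. The comparison averaged over the genotypes includes it unless stated. The endogenous Myc signal was 9.45 to 10.64 in NMyc arrays and 11.19 to 11.5 in Ctrl arrays. The distance between positive and negative control probe sets was 4.04 to 4.52 in NMyc arrays and 3.6 to 4.17 in Ctrl arrays, lowest in WT-Ctrl replicate 2 (3.605) and Het-Ctrl replicate 2 (3.787). Of the 5 progenitor markers measured, Kit and Cd34 had group means of 9.24 to 9.85 and 8.22 to 9.01 in NMyc cells. In Ctrl cells these were 9.47 to 9.97 and 9.51 to 9.59. Of the 5 markers, 3 fell with NMyc, and the mean signal of the 5 was 7.87 to 8.47 in NMyc and 8.51 to 8.7 in Ctrl arrays. With either vector this was below the means of the macrophage, neutrophil and mast cell markers given next. Markers of mature cells also differed with the vector. All 5 macrophage markers fell (means of 8.81 to 8.96 in NMyc and 10.26 to 11.16 in Ctrl arrays), as did all 4 megakaryocyte markers (7.22 to 7.47 in NMyc and 9.37 to 9.95 in Ctrl arrays). Of 6 neutrophil markers, 4 fell and 2 rose (10.5 to 10.77 in NMyc and 11.18 to 11.96 in Ctrl arrays), and of 5 mast cell markers, 4 fell and 1 rose (10.24 to 10.69 in NMyc and 11.1 to 11.78 in Ctrl arrays). The mean signals of the erythroid, B lymphoid, T lymphoid and stromal and endothelial markers overlapped between the vectors. Of these, 1 of 3 B lymphoid markers rose (Ebf1, 0.45), 1 of 4 stromal and endothelial markers fell (Pecam1, -0.89), and 0 of 2 erythroid and 0 of 3 T lymphoid markers passed. No measured marker of any list lay below the median of the negative control sets on all arrays. In such bulk samples fewer cells of a type and less RNA per cell cannot be told apart, and the part of these shifts in the results below was not tested.

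With NMyc, 8 of the 10 genes rose and 1 fell in the comparison averaged over the genotypes (limma, Benjamini-Hochberg adjusted p under 0.05). Over all probe sets tested 33.6% were called, 18.2% higher and 15.5% lower. The median change of the 10 genes was 0.73 on the log2 scale, against -0.022 over all probe sets. The deposited signals differed 2.49-fold for Top1mt, 2.43-fold for Tfb2m and 1.96-fold for Twnk. Much of the signal was dim, and the exact folds of dim genes carry that limit: the 95th percentile of the negative control sets, array by array, was exceeded by Twnk and Polg2 on 0 of 6 NMyc and 0 of 8 Ctrl arrays. Polrmt exceeded it on 1 NMyc array, Top1mt on 3, Mgme1 on 4, and Polg and Tfam on 5 each, all with 0 Ctrl arrays. Tfb1m did so on 3 NMyc arrays and 1 Ctrl array, Tfb2m on 6 and 2, and Ssbp1 on 6 and 8. All 6 NMyc arrays lay above all 8 Ctrl arrays for 6 genes, Twnk, Ssbp1, Top1mt, Polrmt, Tfam and Tfb2m, which was so for 10.5% of all probe sets. The ranges of Polg, Polg2, Mgme1 and Tfb1m overlapped. Where single groups are compared below, 2 or 3 arrays a group separate easily, and no share over all probe sets is given for that.

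**Figure D1:**
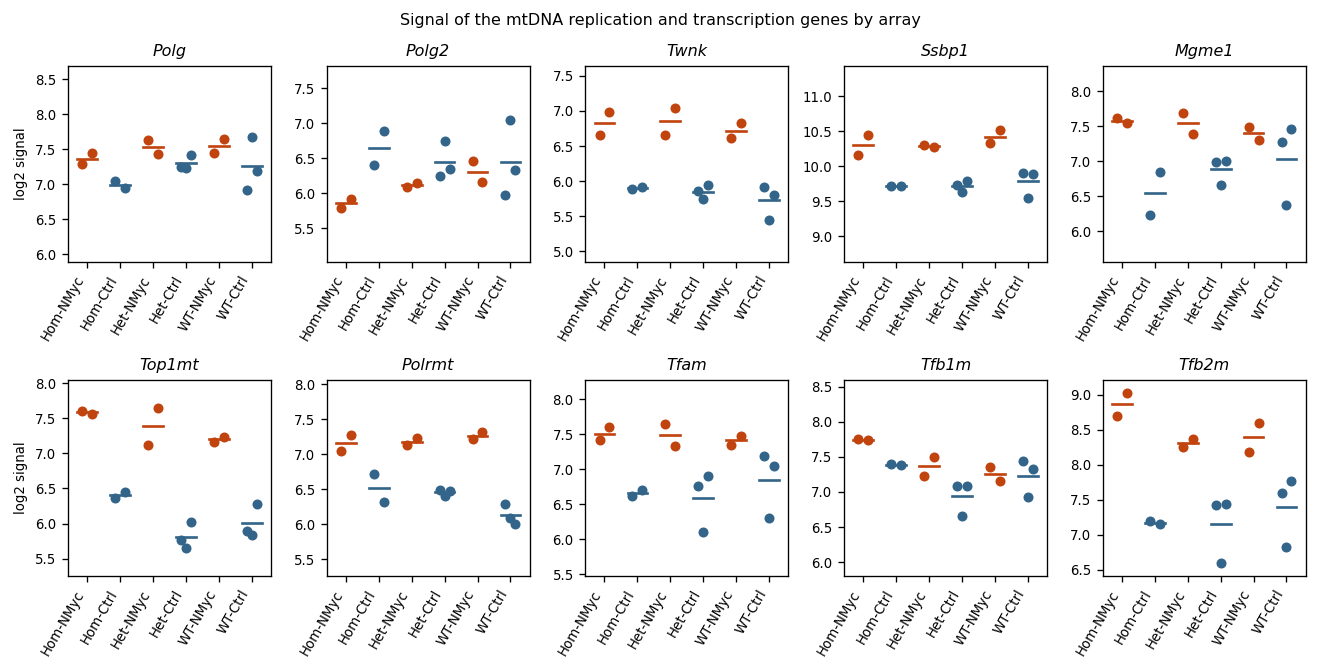
Log2 signal of the 10 genes on each of the 14 arrays, by group, with points for arrays and bars for group means (NMyc in orange, Ctrl in blue). The 6 NMyc arrays stand above the 8 Ctrl arrays for Twnk, Ssbp1, Top1mt, Polrmt, Tfam and Tfb2m, and overlap them for Polg, Polg2, Mgme1 and Tfb1m.

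Polg, the gene whose genotype defines the groups, differed little between them. Its signal was 7.29 and 7.44 in Hom-NMyc arrays, against 7.04 and 6.95 in Hom-Ctrl arrays. Het-NMyc arrays had 7.63 and 7.43, against 7.25, 7.23 and 7.42 in Het-Ctrl arrays. WT-NMyc arrays had 7.45 and 7.65, against 6.91, 7.67 and 7.19 in WT-Ctrl arrays. The highest of all 14 values belonged to WT-Ctrl replicate 2, the array of the lowest control contrast. Every neighbouring pair of groups, in order of the means, overlapped, but not every pair of groups did. Hom-NMyc arrays lay above Hom-Ctrl arrays, and Het-NMyc above Het-Ctrl arrays by 7.43 against 7.42. Hom-Ctrl arrays lay below the Het-Ctrl arrays (-0.31, limma adjusted p = 0.478), and Hom-NMyc below the WT-NMyc arrays (-0.18, limma adjusted p = 0.842). The averaged change was 0.30 ± 0.11 (SE; 1.23-fold; limma adjusted p = 0.0488), and it was called in 8 of 25 alternative settings, with adjusted p from 0.0045 to 0.209. No genotype passed by itself, and how many of all probe sets had groups that were separate is not given.

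Polg2, the accessory subunit, was the member that was lower with NMyc. It read 5.79 and 5.92 in Hom-NMyc arrays, against 6.41 and 6.89 in Hom-Ctrl arrays. Het-NMyc arrays gave 6.09 and 6.14, against 6.25, 6.75 and 6.35 in Het-Ctrl arrays. WT-NMyc arrays gave 6.46 and 6.16, against 5.98, 7.05 and 6.33 in WT-Ctrl arrays. The vectors separated fully in Hom and Het cells and overlapped in WT cells, and 2 of the 6 NMyc arrays, both Hom-NMyc, lay below all Ctrl arrays. For separation in such small groups no share over all probe sets is given. Polg2 fell by 0.42 on average (SE 0.15; 1.34-fold; limma adjusted p = 0.041), was called in 13 of the 25 settings (adjusted p 0.00265 to 0.436), and turned to 0.20 (adjusted p = 0.436) with the control contrast as a covariate, a setting added after seeing the data. Within Hom cells the difference was -0.79 (95% interval -1.38 to -0.20; limma adjusted p = 0.0635) and did not pass, nor did it without the array labelled Hom-Ctrl replicate 1 (-1.03, adjusted p = 0.064). Polg and Polg2 thus had the smallest called changes of the members, and in opposite directions.

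The helicase gene Twnk separated the vectors in all genotypes, at signals that on none of the 14 arrays exceeded the 95th percentile of the negative control sets. Hom-NMyc arrays read 6.66 and 6.99, against 5.88 and 5.91 in Hom-Ctrl arrays. Het-NMyc arrays read 6.66 and 7.04, against 5.86, 5.75 and 5.94 in Het-Ctrl arrays. WT-NMyc arrays read 6.61 and 6.83, against 5.92, 5.45 and 5.80 in WT-Ctrl arrays. The lowest NMyc value was above the highest Ctrl value, and the 3 genotypes gave nearly the same step. Twnk rose by 0.97 ± 0.10 on average (SE; limma adjusted p = 2.10e-06), by 0.93 in Hom, 1.00 in Het and 0.99 in WT cells, and it was called in 25 of 25 settings. Near its start, Twnk lies within the annotated span of Mrpl43, a mitochondrial ribosomal protein gene, and that neighbour, chosen after its values were seen, rose by 0.87 ± 0.10 (SE; adjusted p = 5.07e-06). Which strand the probes read was not tested here.

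Ssbp1, the single-strand binding protein, varied little within the groups. Its signal was 10.16 and 10.44 in Hom-NMyc arrays, against 9.72 and 9.72 in Hom-Ctrl arrays. In Het-NMyc arrays it was 10.31 and 10.27, against 9.73, 9.64 and 9.79 in Het-Ctrl arrays. In WT-NMyc arrays it was 10.33 and 10.52, against 9.91, 9.55 and 9.89 in WT-Ctrl arrays. The vectors did not overlap, and it was the one member above the 95th percentile of the negative control sets on every array. Ssbp1 rose by 0.60 ± 0.09 (SE; 1.51-fold; limma adjusted p = 6.48e-05) and was called in each genotype, but missed the threshold with the control contrast as a covariate (0.39, adjusted p = 0.0501, the highest of the 25 settings, which began at 2.87e-06).

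Mgme1, the exonuclease of mtDNA ends, had its largest step in Hom cells, though no difference between the genotypes' steps passed the test. It read 7.61 and 7.54 in Hom-NMyc arrays, against 6.23 and 6.85 in Hom-Ctrl arrays. Het-NMyc arrays had 7.69 and 7.39, against 6.99, 6.66 and 7.0 in Het-Ctrl arrays. WT-NMyc arrays had 7.49 and 7.30, against 7.27, 6.37 and 7.46 in WT-Ctrl arrays. In Hom and Het cells the vectors were separate, and in WT cells they overlapped, with no share over all probe sets given for such small groups. The averaged rise was 0.69 ± 0.16 (SE; limma adjusted p = 0.00261), and of the genotypes Hom alone passed (1.04, adjusted p = 0.0204, against 0.66 and 0.103 in Het and 0.36 and 0.423 in WT). Without the array labelled Hom-Ctrl replicate 1 the Hom value was 0.73 (adjusted p = 0.212), within a range of 0.00258 to 0.346 over the settings. With the control contrast as a covariate the averaged change was 0.34 (adjusted p = 0.397, within 8.56e-04 to 0.397).

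Top1mt, the mitochondrial topoisomerase, had the highest averaged change of the members, though in Hom cells Tfb2m changed more. Hom-NMyc arrays had 7.60 and 7.57, against 6.37 and 6.45 in Hom-Ctrl arrays. Het-NMyc arrays had 7.12 and 7.65, against 5.76, 5.65 and 6.02 in Het-Ctrl arrays. WT-NMyc arrays had 7.17 and 7.23, against 5.90, 5.83 and 6.28 in WT-Ctrl arrays. Every NMyc array was above every Ctrl array, and no Ctrl value exceeded the negative sets' 95th percentile. The averaged change was 1.32 ± 0.11 (SE; limma adjusted p = 1.37e-07), with 1.17 in Hom, 1.58 in Het and 1.20 in WT cells, and all 25 settings kept the averaged call.

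Among the transcription genes, the RNA polymerase Polrmt had 7.05 and 7.28 in Hom-NMyc arrays, against 6.72 and 6.31 in Hom-Ctrl arrays. Het-NMyc arrays had 7.13 and 7.23, against 6.49, 6.40 and 6.48 in Het-Ctrl arrays. WT-NMyc arrays had 7.22 and 7.31, against 6.29, 6.09 and 6.01 in WT-Ctrl arrays. The NMyc groups lay close together, while the WT-Ctrl arrays were the lowest of all. Polrmt rose by 0.84 ± 0.09 (SE; 1.78-fold; limma adjusted p = 2.79e-06), by 0.65 in Hom, 0.72 in Het and 1.13 in WT cells, and was called in 25 of 25 settings.

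Tfam, which packages mtDNA and starts its transcription, had 7.41 and 7.60 in Hom-NMyc arrays, against 6.62 and 6.70 in Hom-Ctrl arrays. Het-NMyc arrays had 7.65 and 7.33, against 6.76, 6.10 and 6.91 in Het-Ctrl arrays. WT-NMyc arrays had 7.34 and 7.48, against 7.19, 6.31 and 7.05 in WT-Ctrl arrays. The lowest Ctrl values were those of Het-Ctrl replicate 2 and WT-Ctrl replicate 2, the arrays of lowest control contrast. Tfam rose by 0.77 ± 0.15 (SE; limma adjusted p = 7.38e-04) and by 0.59 (adjusted p = 2.33e-04) without those arrays. With the control contrast as a covariate the change was 0.28 (adjusted p = 0.392, the highest of the 25 settings). It passed in Hom (0.84, adjusted p = 0.047) and Het (0.90, 0.0196) and not in WT cells (0.56, 0.153).

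Tfb2m, the transcription factor that melts the promoter, read 8.70 and 9.03 in Hom-NMyc arrays, against 7.19 and 7.15 in Hom-Ctrl arrays. Het-NMyc arrays read 8.25 and 8.36, against 7.42, 6.59 and 7.44 in Het-Ctrl arrays. WT-NMyc arrays read 8.18 and 8.60, against 7.60, 6.82 and 7.76 in WT-Ctrl arrays. Both Hom-NMyc arrays were above all other arrays, and the NMyc arrays as a whole were above the Ctrl arrays. Tfb2m rose by 1.28 ± 0.16 (SE; limma adjusted p = 1.33e-05), by 1.69 in Hom, 1.15 in Het and 1.00 in WT cells. The call held in 25 of 25 settings, and the averaged change was 1.09 without the arrays of lowest control contrast (adjusted p = 3.23e-06) and 0.64 with that contrast as a covariate (adjusted p = 0.024, the highest of the settings).

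Tfb1m, the ribosomal RNA methyltransferase, did not pass. It read 7.75 and 7.74 in Hom-NMyc arrays, against 7.40 and 7.38 in Hom-Ctrl arrays. Het-NMyc arrays read 7.23 and 7.50, against 7.09, 6.65 and 7.09 in Het-Ctrl arrays. WT-NMyc arrays read 7.35 and 7.15, against 7.44, 6.93 and 7.33 in WT-Ctrl arrays. The vectors overlapped in WT cells and were separate in Hom and Het cells. Such small groups separate easily, and no share over all probe sets is given. The averaged difference was 0.27 (95% interval 0.04 to 0.49; limma adjusted p = 0.0716), called in 4 of the 25 settings (adjusted p 0.0328 to 0.909).

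The consecutive sample codes fall into runs, which the labels do not call batches. Comparing NMyc with Ctrl arrays of the same genotype and run gave 5 pairs, with Hom in 1 run. The first run holds Ctrl arrays alone and gave no pair. How many of all probe sets kept 1 sign over the 5 pairs is not given, so the counts have no background. The difference was positive in 5 of 5 pairs for Twnk (0.75 to 1.16), Ssbp1 (0.44 to 0.78), Tfam (0.42 to 1.55), Polrmt (0.73 to 1.30), Tfb2m (0.85 to 1.66) and Top1mt (0.95 to 1.63). It was positive in 4 of 5 for Polg (-0.22 to 0.47), Tfb1m (-0.19 to 0.58) and Mgme1 (-0.16 to 1.12), and in 0 of 5 for Polg2 (-1.09 to -0.18).

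By genotype, 7 members rose in Hom cells (10.7% of all probe sets), 6 in Het cells (11.1%) and 5 in WT cells (10.1%). In each genotype 0 members fell, against 7.01% of all probe sets in Hom, 8% in Het and 9.05% in WT cells. At an unadjusted p under 0.05 the numbers were 8, 8 and 6, in either direction. The share of all probe sets at that unadjusted threshold is not given here, so these numbers have no background. Twnk, Ssbp1, Top1mt, Polrmt and Tfb2m were called in all genotypes, Tfam in Hom and Het cells, and Mgme1 in Hom cells alone. Of these calls, that of Tfam in Hom cells was kept in 12 of 25 settings, those of Ssbp1 and Mgme1 in Hom cells in 19 each and that of Polrmt in Hom cells in 21. In fits without 1 array, the median change of the members was 0.64 to 0.85 in Hom cells and 0.51 to 0.72 in WT cells. Without the array labelled Hom-Ctrl replicate 1, the Hom changes of Twnk, Top1mt, Polrmt and Tfb2m were 0.92, 1.13, 0.86 and 1.71. Those of Ssbp1, Tfam and Mgme1 were then 0.58, 0.81 and 0.73. Fewer members, and fewer of all probe sets, were called in Hom cells without either Hom-Ctrl array. Fewer members were also called in Hom cells without Hom-NMyc replicate 2 and in WT cells without WT-NMyc replicate 2. Whether the effect itself differed between genotypes was tested directly, and 0 members passed in any of the 3 comparisons (limma). At an unadjusted p under 0.05 there were 0 as well. Adjusted calls over all probe sets were 0.0811% for Hom against WT, 0% for Het against WT and 0.0315% for Hom against Het. The largest differences between Hom and WT effects were of Tfb2m (0.69, 95% interval -0.18 to 1.56), Mgme1 (0.67, -0.16 to 1.51), Polg2 (-0.64, -1.44 to 0.16) and Polrmt (-0.48, -0.97 to 0.01). Without the array labelled Hom-Ctrl replicate 1 they were 0.71, 0.36, -0.88 and -0.27, with Polg2 then the largest in size (limma adjusted p 0.619 to 0.908). All 4 intervals from the full set include 0, so differences of this size were not resolved with 2 or 3 arrays a group.

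**Figure D2:**
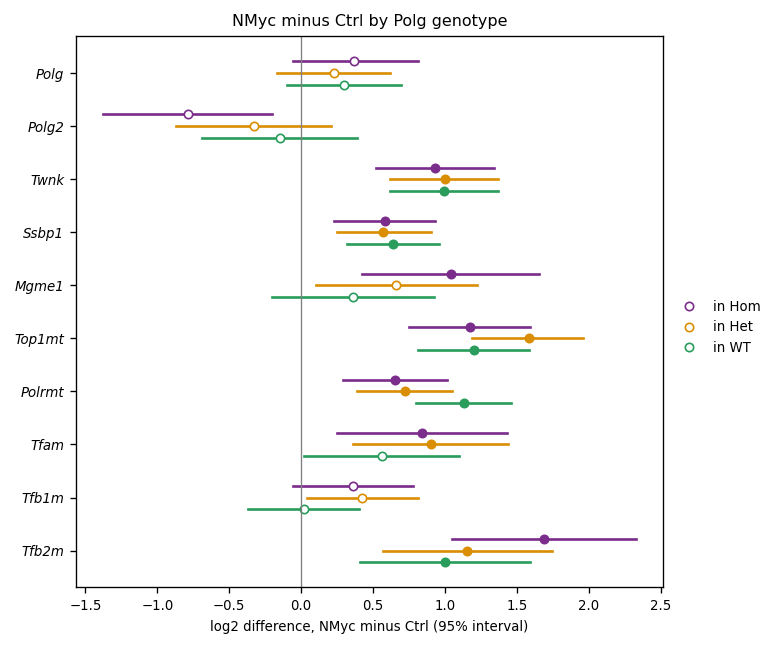
NMyc minus Ctrl on the log2 scale for each gene in Hom, Het and WT cells, with 95% intervals, filled points passing an adjusted p of 0.05. The step of Top1mt runs from 1.17 to 1.58 and that of Twnk from 0.93 to 1.00, and Polg2 has its lowest value, -0.79, in Hom cells.

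Between genotypes within a vector, no member passed. Among Ctrl cells, Hom minus WT called 0 members and 3.91% of all probe sets, Hom minus Het 0 and 2.4%, and Het minus WT 0 and 0% (limma). Without Hom-Ctrl replicate 2 the first shares were 0.446% and 0.248%, and without the array labelled Hom-Ctrl replicate 1 they were 2.73% and 1.92%. Unadjusted p-values under 0.05 numbered 2, 2 and 1. The shares of all probe sets given here are of adjusted calls, with none at hand for the unadjusted threshold. Among NMyc cells, the same differences called 0 members and 0% of all probe sets each, with 1, 0 and 0 unadjusted for Hom minus WT, Hom minus Het and Het minus WT. The median Hom minus WT difference of the members was 0.10 with NMyc and 0.05 with Ctrl, against 0.003 and -0.001 over all probe sets.

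Polg itself was 7.37 ± 0.11 in Hom-NMyc and 7.55 ± 0.14 in WT-NMyc cells, and 6.99 ± 0.06 in Hom-Ctrl and 7.26 ± 0.38 in WT-Ctrl cells (SD, n = 2 or 3). The Hom minus WT difference was -0.18 (95% interval -0.62 to 0.25) with NMyc and -0.26 (-0.66 to 0.13) with Ctrl. Both intervals span 0, and the array was not used to read the mutation. Polrmt was higher in Hom-Ctrl than in WT-Ctrl cells without overlap, by 0.38 (0.05 to 0.71; limma adjusted p = 0.209). Its 3 WT-Ctrl arrays also lay below the 3 Het-Ctrl arrays, with a Het minus WT difference of 0.33 (0.03 to 0.62; adjusted p = 0.999). Top1mt was higher in both Hom-Ctrl arrays than in any Het-Ctrl or WT-Ctrl array, by 0.61 against Het (0.22 to 0.99; adjusted p = 0.0973) and by 0.41 against WT (0.03 to 0.80; adjusted p = 0.257). Without the array labelled Hom-Ctrl replicate 1 the difference against Het was 0.65 (adjusted p = 0.19). With all arrays it passed with the replicate number as a block (0.73, adjusted p = 0.0376). Mgme1 overlapped between Hom-Ctrl and WT-Ctrl arrays, with a difference of -0.49 (-1.05 to 0.07; adjusted p = 0.378). It was -0.82 (adjusted p = 0.0423) without WT-Ctrl replicate 2 and -0.18 (adjusted p = 0.857) without the array labelled Hom-Ctrl replicate 1. Without that same array the Hom minus WT difference was 0.17 for Polrmt, 0.45 for Top1mt and -0.31 for Polg, and none passed. Within code runs, Hom minus WT with Ctrl was 0.43 and 0.22 for Polrmt, 0.48 and 0.62 for Top1mt, 0.13 and -0.72 for Polg, and -1.04 and 0.49 for Mgme1, so the sign held over both runs for Polrmt and Top1mt and turned for Polg and Mgme1. Tfb1m was higher in Hom-NMyc than in WT-NMyc cells by 0.50 (0.08 to 0.92; adjusted p = 0.526). The Hom and Het differences share their WT arrays, and all share arrays with the NMyc comparisons. How many of all probe sets had genotypes without overlap is not given.

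**Figure D3:**
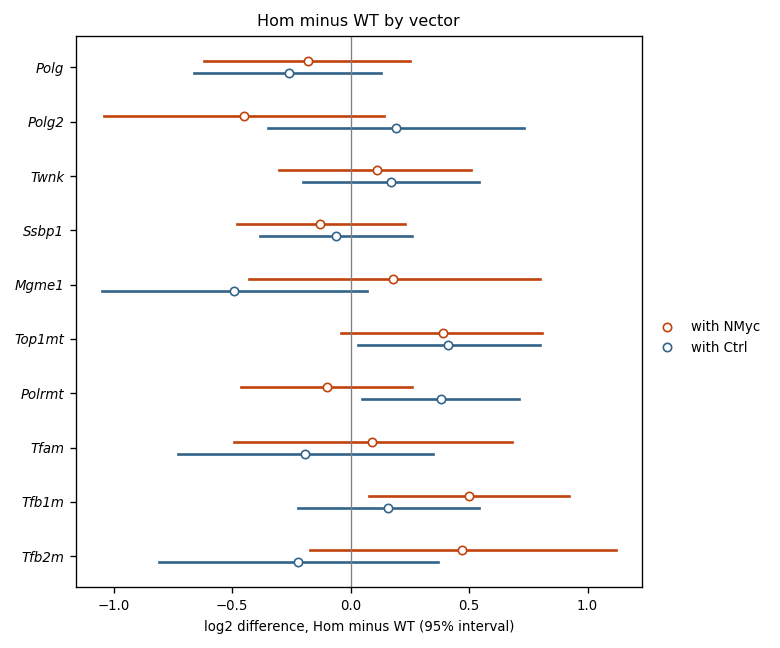
Hom minus WT on the log2 scale for each gene with NMyc and with Ctrl, with 95% intervals, open points not passing an adjusted p of 0.05. All 20 points are open, and they lie between -0.49 and 0.50.

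Most pairs of members varied together over the 14 arrays, which share the vector contrast. Of the 45 pairs, 35 correlated positively (median r 0.67, from -0.80 to 0.95), and of deviations from the group means 27 did (median 0.34). These are descriptions over arrays in 6 groups, and no such count over other probe sets is given. On WT-Ctrl replicate 2, the array of lowest control contrast, the deviations ran from -0.67 for Mgme1 to 0.59 for Polg2. Polg was also above its group mean there (0.41), and the other members were below theirs. The part of the control contrast in these correlations was not tested. Polg2 opposed the others most. For each member, the most similar gene over the 14 arrays by Pearson's r was Acvr2b for Polg (0.901), Sh3gl1 for Polg2 (0.929), Banf1 for Twnk (0.985), Parl for Ssbp1 (0.978), Zdhhc2 for Mgme1 (0.983), Txn2 for Top1mt (0.985), Snrnp200 for Polrmt (0.972), Pole4 for Tfam (0.966), Oma1 for Tfb1m (0.891) and Nasp for Tfb2m (0.977).

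Other genes of mtDNA upkeep and expression were counted in 6 lists for the averaged NMyc comparison (all probe sets, 18.2% higher and 15.5% lower). In mitochondrial RNA processing and decay, 7 of 9 genes rose and 0 fell, with a median of 1.16. Among them were Elac2, which cuts the ends of transfer RNAs (1.42), Supv3l1, an RNA helicase of decay (1.16), and Rexo2, which clears short RNA fragments (1.23). Of 12 nucleoid and transcription cofactors, 7 rose and 1 fell (median 0.25). The largest were Lrpprc, which stabilises mitochondrial messenger RNA (1.67), Atad3a, a nucleoid-associated membrane protein (1.47), and Mrpl12, a ribosomal protein that also binds Polrmt (1.36). Clpx, the chaperone of a matrix protease, fell by 0.32.

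Of 13 repair and end-processing genes, 8 rose and 1 fell (median 0.36). The flap nuclease Fen1 rose by 1.39, the nuclease Endog by 1.03 and the nuclease and helicase Dna2 by 0.90, and the primase Primpol fell by 0.58. Nucleotide supply was split, with 6 of 12 genes higher and 5 lower (median 0.25). Dut, which removes dUTP, rose by 0.78, and Suclg1, a subunit of succinyl-CoA ligase, by 0.70. The mitochondrial nucleoside kinases Tk2 and Dguok fell by 0.72 and 0.58, the transporter Slc25a36 by 0.61, the ribonucleotide reductase subunit Rrm2b by 0.56 and the nucleotide hydrolase Samhd1 by 0.87. In the same list the ribonucleotide reductase subunits Rrm1 and Rrm2 rose by 0.66 and 0.55.

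Of 9 nuclear regulators of mitochondrial biogenesis, 3 rose and 0 fell (median 0.13): the coactivators Ppargc1b (1.07) and Pprc1 (1.00), and Gabpb2, a GABP subunit (0.46). Of the others, Nrf1 differed by 0.13 and Gabpa by 0.10, and neither passed. Gabpb2 was also the one list gene of these 6 lists called in Hom minus WT with Ctrl, where it averaged 6.83 ± 0.21 in Hom-Ctrl and 7.89 ± 0.42 in WT-Ctrl cells (SD, n = 2 and 3; difference -1.06, limma adjusted p = 0.0124). It did not pass without the array labelled Hom-Ctrl replicate 1 (-0.91, adjusted p = 0.0914) or without Hom-Ctrl replicate 2 (-1.21, adjusted p = 0.0698), and its adjusted p ran from 0.00361 to 0.0914 over the settings. In the same comparison 2 of 5 mast cell markers were higher (Ms4a2, 1.10, and Fcer1a, 0.66), 1 of 6 neutrophil markers was lower (Ltf, -1.42), and 0 of 5 macrophage markers passed, with a median of -0.59. The part of these shifts in the Gabpb2 difference was not tested. The other list genes with the smallest p in that comparison did not pass (adjusted p 0.0809 to 0.46): Nrf1 (-0.47), Rrm2b (-0.64), Dguok (0.50), Primpol (0.67), Lig3 (0.25), Lonp1 (-0.37), Slirp (0.33), Prorp (0.38), Rexo2 (0.28), Pola1 (-0.46) and Pole2 (-0.32). Counterparts for the nuclear genome rose in 14 of 17 cases and fell in 0 (median 0.72), with Pole2 of a nuclear replicative polymerase at 1.06, Mcm2 of the nuclear helicase at 1.25 and Polr1a of RNA polymerase I at 1.51. Their median was close to the 0.73 of the mtDNA enzymes. Of 15 genes encoded by mtDNA, 0 were found by symbol, so the transcripts these enzymes make were not analysed here under their names.

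**Figure D4:**
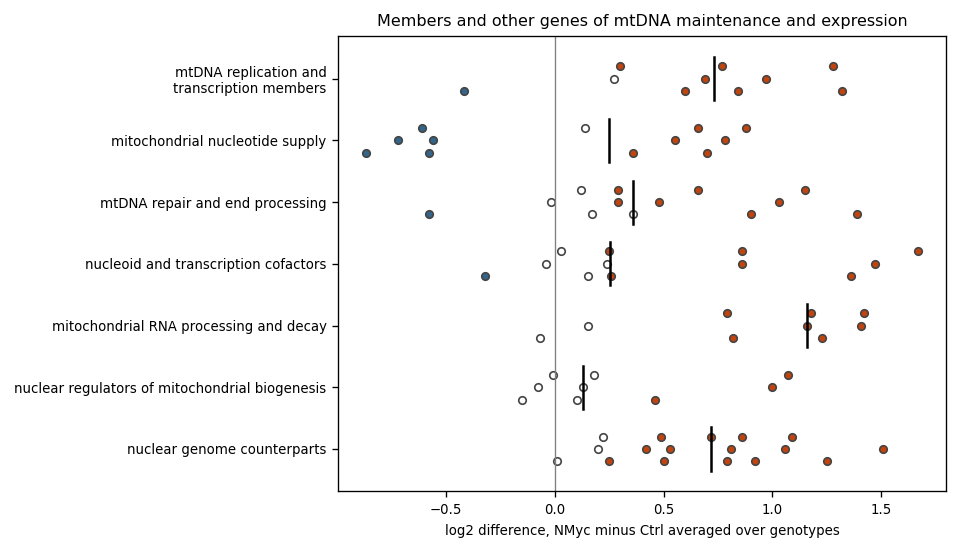
NMyc minus Ctrl averaged over the genotypes, on the log2 scale, for the 10 members and the measured genes of 6 lists, with a vertical bar at each list's median and colour for genes past an adjusted p of 0.05 (orange higher, blue lower, open not passing). The RNA processing list has the highest median, 1.16, and the nucleotide supply list holds 6 genes that rose and 5 that fell.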

How the data were processed

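Per the submitters' processing notes, the authors used Affymetrix Expression Console (version not given) to obtain the deposited log2 values, 1 for each probe set on each array. How probes were summarised and arrays normalized was not stated in those notes or in the labels. The values ran from 2.24 to 13.5, from which the log2 scale was taken, and no further scaling was applied, so a shift of most transcripts may have been removed before deposit. From the 28846 probe sets, the 6640 that are array controls were removed. Symbols came from the platform's annotation, with 0 changed through the RefSeq table of GRCm38.p6.

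In limma 3.58.1 (R 4.3.3), 6 group means were fitted to all 14 arrays, and 13 two-sided differences were tested with eBayes (8 residual and 7.3 prior degrees of freedom). Adjustment of p-values was by Benjamini-Hochberg over all 22206 probe sets tested, with a threshold of 0.05. The code was tested on simulated data. The number of arrays limits the precision, and the p-values cover only the spread among these arrays.

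All 140 member values exceeded the negative control sets' median on their array (4.39 to 4.87), and 44 exceeded the 95th percentile of those sets (7.15 to 8). The members and lists were chosen with earlier results of these data known. All members were named. From each list, up to 3 genes with the smallest p among those called with NMyc were named, up to 2 for Hom minus WT with Ctrl, and genes against most of their list. Rrm1, Rrm2, Gabpa and the averaged Nrf1 value were added after their values were seen. For likeness, the closest named gene is given. Alternatives were other scalings, control and dim filters, spread models, groups, replicate and code-run blocks, 14 fits without 1 array, and, added after seeing the data, 2 on control contrast. Over 31 same-number pairs, deviations from group means correlated at a median of 0.01 (-0.13 to 0.27), and 7 pairs were over 0.1. Same-number arrays of 1 vector were also of 1 code run, and correlated at 0.03 to 0.27. Same-number arrays of different vectors were of different code runs, and correlated at -0.13 to 0.03. The reported fit used neither number nor run as a block. The 28 pairs of arrays of 1 code run correlated at a median of 0.08 (9 over 0.1), and the 53 pairs from other runs at -0.07 (1 over 0.1). In a group of 2 arrays the deviations mirror each other, so positive values within a run bring negative ones across runs. Part of the contrast between these medians, and of the range for different vectors, is therefore built in.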

Additional observations from a re-analysis of the deposited data

How the results depend on the processing

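Of 25 settings beside the one reported, 23 were planned and 2 were chosen after seeing the data. For the members' single-gene results, 3007 of 3250 values kept direction and side of the threshold, and of the counts and medians 938 of 975 stayed within 1.5 times or the spread. Of the other single-gene values 76 lost a call, 20 gained one, 146 changed sign without a call and 1 with one; of the NMyc calls within a genotype, those lost in at least 1 setting outside the covariate fit included Tfb2m in WT (adjusted p 0.0698 without WT-Ctrl 2, 0.198 without WT-NMyc 2), Tfb2m in Het (0.0657 without Het-NMyc 2), Tfam in Het (0.0861 without Het-Ctrl 2, 0.186 without Het-NMyc 1), Twnk in Hom (0.0578 without Hom-NMyc 2) and Ssbp1 in each genotype. The 1 averaged lower call (Polg2) was 0 under quantile normalization, median centring, with only AFFX sets left out and under both added settings; Polg2 changed sign to 0.20 with control contrast as a covariate. That covariate, which moves with the vector, left 5 averaged higher calls (Polg, Twnk, Polrmt, Tfb2m and Top1mt) with a median of 0.48, against 10.6% of all probe sets higher. It left 2 in Het (median 0.41) and 1 in Hom (Top1mt, median 0.51), against 6.71% and 5.36% of all probe sets higher. The Hom minus WT median with NMyc was -0.08, and the cause was not tested. In Hom cells, 4 members rose with code runs 2 and 3 alone, where fewer arrays enter, and 1 member (Polg2) fell under the trend and robust spread, with only the groups compared, with the replicate block, with the code-run block, with runs 2 and 3 alone and without the arrays of lowest contrast. Without those arrays 1 member (Mgme1) was lower in Hom minus WT with Ctrl. The replicate block and the code-run block each called 1 member (Top1mt, 0.73 and 0.70) higher in Hom minus Het with Ctrl; the block changed no other count by over 1.5 times, and averaged calls stayed at 8 higher and 1 lower. Of the averaged calls of single members, the block lost that of Polg (0.31, adjusted p = 0.0624) and added Tfb1m (0.31, 0.0408). The code-run block lost Polg (0.23, 0.209) and the Hom call of Mgme1 (1.01, 0.0594) and added Tfb1m (0.32, 0.0417).

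Leaving out 1 array gave averaged counts of 7 to 8 higher and 0 to 1 lower, WT counts of 3 to 5 higher, Hom counts of 2 to 7 higher and 0 to 1 lower, Hom minus WT with Ctrl counts of 0 to 1 lower, and medians of the Het minus WT effect of -0.04 to 0.29. The averaged lower call was lost without Het-Ctrl 2, Hom-Ctrl 2, WT-NMyc 2 or any Het-NMyc or Hom-NMyc array. The Hom lower call appeared without WT-Ctrl 1 or 2, and the median of 0.29 without WT-Ctrl 2. Where 1 array stayed in a group, it was assumed to vary like the others. Without either Hom-Ctrl array, fewer of all probe sets were called in Hom cells as well, so the lower Hom counts there are not particular to the members. Quantile normalization and centring moved the median of all probe sets by 0.027 and 0.048. Signals of 96 member values lay under the 95th percentile of the negative sets, which limits small changes.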

Other observations

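Among unnamed probe sets, 9 have the letter M in the chromosome field of their ID. In named sets that field equalled the RefSeq chromosome in 19506 of 19508 cases, and the annotation names 0 of these 9. They were picked after the data were seen, so their values carry no test. With NMyc, all 9 were lower in Hom than in WT cells (-0.48 to -0.02, median -0.21 on the log2 scale). All 9 were also lower in Het than in WT cells (-0.31 to -0.03, median -0.26), and the 2 differences share the WT-NMyc arrays. Over all probe sets, 50.4% of the Hom minus WT and 54.9% of the Het minus WT differences with NMyc were positive. The 9 sets were read on the same arrays, so they are not independent observations. With Ctrl, Hom minus WT was negative in 7 of 9 (-0.16 to 0.09, median -0.04) and Het minus WT in 4 of 9 (-0.07 to 0.06, median 0.01). Of all probe sets, 49.9% and 49.4% were positive in these comparisons. NMyc minus Ctrl averaged over genotypes was negative in 8 of 9 (median -0.06), with 46.4% of all probe sets positive. In WT cells NMyc minus Ctrl was positive in 7 of 9 (median 0.08), and in 49.5% of all probe sets. In Het cells it was positive in 1 of 9 (median -0.16), and in 48.9% of all probe sets. In Hom cells it was positive in 3 of 9 (median -0.09), and in 46.8% of all probe sets. The group means of 7 of the sets lay above the 99th percentile of all tested values (11.89), and the part of that height in the differences was not tested.

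Among the neighbours of the members' windows, chosen after their values were seen, Snx5 beside Mgme1 changed by 0.23 (limma adjusted p = 0.0337) and Cnst beside Tfb2m by -0.24 (adjusted p = 0.0406), with NMyc averaged over genotypes.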
